A study of Mus musculus with 21 samples.

Results

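The genes described here are 36 genes of the cell cycle and of DNA replication, found by taking every listed symbol that equals a gene name on the array, and all 36 were found among the 27373 gene names measured. They fall into 15 S phase genes, which license, build or supply DNA replication, and 21 mitosis genes, which enter, order or complete cell division. The samples came from male mice of the C57Bl6/J background, 45 weeks old, all of which had eaten a high-fat diet from week 5 to week 44. The JNK1 knock-out (KO) mice lack the stress-activated kinase JNK1, and the wild-type (WT) mice carry it. RNA was measured from skin (4 KO and 3 WT samples), from liver (3 KO and 3 WT samples) and from epididymal fat (4 KO and 4 WT samples), with 1 single-colour array per sample. The labels do not say how the JNK1 allele was made, nor whether arrays of different tissues came from the same mice, so p-values measure only the spread between these samples. No group on another diet was studied, so every difference below is between genotypes or tissues under high-fat feeding.

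Before a cell divides, its chromosomes are licensed for copying by the MCM helicase, which CDC6 and CDT1 load at origins. Cyclin E and the E2F factors then drive the switch into S phase, during which ribonucleotide reductase and thymidylate synthase supply nucleotides and the sliding clamp PCNA holds the polymerases on DNA. Later, cyclin B with CDK1 opens mitosis, the Aurora and Polo kinases and the kinesins shape the spindle, BUB1 and BUB1B keep the spindle checkpoint, and CDC20 and UBE2C end it through the anaphase-promoting complex. Promoters of the first group are classically bound by E2F, while those of the second carry a cell cycle homology region (CHR) read by the DREAM complex and by MYBL2 and FOXM1. Most cells of adult liver and fat rest outside the cycle, whereas the basal epidermis and the matrix of growing hair follicles divide steadily. MKI67 and TOP2A are used as markers of dividing cells.

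Levels are log2 of the background-corrected, processed spot signal less that array's 75th percentile, so 0 marks that percentile. Levels were set against each other only within a gene. Testing in a tissue required a signal well above background on at least 3 of that tissue's arrays, which left 33 members in skin, 28 in liver and 33 in fat. *Ccne2* (cyclin E2), *Aurkb* (Aurora B kinase) and *Cenpa* (centromeric histone), above background on 1, 0 and 0 of the 20 arrays fitted, were tested nowhere. *Top2a*, *Ccnb1*, *Bub1b*, *Kif11* and *Kif23* were not tested between genotypes in liver. The share of probes above background was between 38.9 and 57.2% on these 20 arrays, and was lowest on skin KO 1 and skin WT 1 (39.5%). The scanner file labelled fat WT 2 correlated with skin arrays at 0.863 to 0.914 and with fat arrays at 0.725 to 0.766, so fat levels rest on 4 KO and 3 WT arrays, and fat WT 2 enters only through its column of the deposited value table. *Mapk8*, which encodes JNK1, was at -3.30 ± 0.28 in KO fat (SD, n = 4) and -0.92 ± 0.11 in WT fat (SD, n = 3), a difference of -2.38 (SE 0.184, limma adjusted p = 0.0167). Liver *Mapk8* differed by -2.37 (adjusted p = 0.216), and in skin it was above background on 0 of 4 KO and 2 of 3 WT arrays. In whole tissue, fewer dividing cells and less RNA per cell cannot be told apart.

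The promoters show how the 2 groups differ in sequence, and 4 are printed because their genes carry the values below. The windows run from 250 bases before to 50 bases after the annotated start (RefSeq, GRCm38.p6, 5′ to 3′ on the gene's strand), and 30 of the 36 members had one. Capitals mark E2F motifs (TTTGGCGC, TTTCCCGC, TTTGCCGC or TTTCGCGC), the CHR motif (TTTGAA) and the CCAAT box, each searched on both strands, and adjoining capitals can hold overlapping motifs. *Mcm5* and *Mcm6* encode subunits of the MCM helicase, *Top2a* encodes the topoisomerase that untangles chromosomes, and *Cdk1* encodes the mitotic kinase.
Mcm5, chr8:75109259-75109558, plus strand: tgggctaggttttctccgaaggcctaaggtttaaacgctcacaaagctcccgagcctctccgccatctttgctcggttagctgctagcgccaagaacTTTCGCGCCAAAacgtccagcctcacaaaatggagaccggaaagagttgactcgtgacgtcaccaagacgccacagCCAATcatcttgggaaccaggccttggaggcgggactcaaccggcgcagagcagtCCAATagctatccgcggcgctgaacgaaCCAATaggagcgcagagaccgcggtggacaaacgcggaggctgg
Mcm6, chr1:128359656-128359955, minus strand: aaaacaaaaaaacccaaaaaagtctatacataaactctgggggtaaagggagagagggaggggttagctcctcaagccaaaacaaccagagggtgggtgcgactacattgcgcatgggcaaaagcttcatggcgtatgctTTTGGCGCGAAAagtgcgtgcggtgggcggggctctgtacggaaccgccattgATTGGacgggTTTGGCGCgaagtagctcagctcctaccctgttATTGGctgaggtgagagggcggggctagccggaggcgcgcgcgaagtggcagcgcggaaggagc
Top2a, chr11:99024140-99024439, minus strand: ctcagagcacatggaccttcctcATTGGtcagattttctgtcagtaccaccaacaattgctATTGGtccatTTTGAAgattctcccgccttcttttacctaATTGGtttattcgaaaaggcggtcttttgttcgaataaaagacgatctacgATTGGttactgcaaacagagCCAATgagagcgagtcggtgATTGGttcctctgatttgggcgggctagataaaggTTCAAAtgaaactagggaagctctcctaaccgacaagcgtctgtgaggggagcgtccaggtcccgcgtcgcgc
Cdk1, chr10:69352863-69353162, minus strand: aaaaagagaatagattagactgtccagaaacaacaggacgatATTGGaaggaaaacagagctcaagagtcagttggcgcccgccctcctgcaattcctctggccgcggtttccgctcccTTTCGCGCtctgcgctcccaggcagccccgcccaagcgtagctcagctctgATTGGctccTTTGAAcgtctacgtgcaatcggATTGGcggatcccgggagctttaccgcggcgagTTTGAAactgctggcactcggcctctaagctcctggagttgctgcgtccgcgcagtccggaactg

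The S phase promoters held an E2F motif in 6 of 14 windows (42.9%), the mitosis promoters in 1 of 18 (5.56%, that of *Cdk1*), and all 32851 mouse promoters of this length in 2.26%. The CHR motif ran the other way, being present in 1 of 14 S phase windows (7.14%, that of *Mcm2*), in 14 of 18 mitosis windows (77.8%) and in 17.9% of all promoters. A CCAAT box stood in 9 of 14 S phase windows (64.3%), 16 of 18 mitosis windows (88.9%) and 37.4% of all promoters. A match is a description of letters, and 13 S phase and 17 mitosis genes supplied these windows, so a few genes have more than 1.

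Among WT mice, mitosis genes made up 11 of the 13 members called between skin and liver and 10 of the 12 between liver and fat. Of the latter 10, 9 were lower in liver and 1, *Bub1*, was higher. In each comparison 19 of the 33 members tested were mitosis genes, and mitosis genes were not tested against S phase genes. Large shares of all genes were also called, and these are given beside the counts below. Of 33 members tested between WT skin and WT liver, 13 passed an adjusted p of 0.05 (limma, Benjamini-Hochberg over all genes). Of these, 11 were higher in skin, all of them mitosis genes, where 29.7% of all genes were called higher, and 2 were lower, both S phase genes, where 34.7% of all genes were called lower. All 19 mitosis genes had a positive difference, with a median of 1.26, while the S phase median was -0.072 and that of all genes -0.14. Genes testable in either tissue were kept, and *Top2a*, *Ccnb1*, *Bub1b*, *Kif11* and *Kif23* qualified through skin alone. Each was above background on 0 or 1 of the 3 WT liver arrays, so the filter favoured a positive sign for them. *Ccnb1* and *Kif23* were among the 11 called higher. Without WT liver 2 or WT liver 3 the count was 8. *Kif23* aside, the named genes below were above background on every WT skin and WT liver array.

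*Prc1*, which bundles the central spindle, was at 1.62, 1.31 and 1.45 in WT skin and at -0.73, -0.92 and -0.62 in WT liver, a difference of 2.21 (SE 0.344, limma adjusted p = 2.33e-05). The tissues did not overlap for this gene. *Ube2c* (1.88, adjusted p = 0.000637), *Cdc20* (2.01, adjusted p = 0.00186) and *Aurka*, encoding Aurora A kinase (1.51, adjusted p = 0.00342), were also higher in WT skin. *Kif23*, a kinesin of cytokinesis, was above background on 1 WT skin array and on 0 WT liver arrays, so its call rests mostly on signals not well above background and no size is given for it. The S phase genes that were lower in WT skin than in WT liver were *Tyms*, thymidylate synthase (-0.79), and the helicase gene *Mcm3* (-0.53).

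Between WT liver and WT fat, 12 of 33 members passed. *Tyms* (0.99, adjusted p = 0.00344) and *Bub1* (1.69) were higher in liver, against 30.1% of all genes, and 10 were lower, against 31.4% of all genes. The mitosis median was -1.19, the S phase median -0.12 and the median of all genes -0.045. Here *Top2a*, *Ccnb1*, *Bub1b*, *Kif11* and *Kif23* qualified through fat alone, each above background on 0 or 1 WT liver arrays. The filter favoured a negative sign for them, and *Ccnb1*, *Bub1b* and *Kif23* were among the 10 called lower. *Kif23* was above background on 0 WT liver and 3 WT fat arrays and was at least 2.03-fold lower in WT liver (measured means -4.87 and -2.41, adjusted p = 0.00226). This bound sets the WT fat mean against the lowest signal well above background on each WT liver array. With normexp background correction the *Kif23* difference was -0.28 (adjusted p = 0.302), which ended the call, and the mitosis median was -0.41. *Prc1* fell by 1.29 (adjusted p = 0.00375) and *Tpx2*, a spindle assembly factor, by 1.81 (adjusted p = 0.00743) in WT liver relative to WT fat. The direction of *Bub1* depended on the probe, as described with the fat results.

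Between WT skin and WT fat, 7 of 33 members passed, with 5 higher in skin, against 26.6% of all genes, and 2 lower, against 30.9%. The 5 were *Bub1* (1.85, adjusted p = 0.00225), *Cdc20* (1.95, adjusted p = 0.00316), *Prc1* (0.93, adjusted p = 0.0296), *Aurka* (0.99) and the transcription factor gene *Foxm1* (1.03). *Pcna* was at 3.13, 3.33 and 3.32 in WT skin and at 4.10, 4.60 and 4.59 in WT fat, a difference of -1.17 (adjusted p = 0.00318). The groups did not overlap for *Pcna*, and *Mcm3* was lower in WT skin by a difference of -0.63 (adjusted p = 0.0183). Without WT skin 3 the count was 3, and without any 1 of the WT fat arrays it was 4. *Prc1* no longer passed without WT skin 1 (0.85), WT skin 3 (0.93) or WT fat 1 (0.81), nor *Mcm3* without WT skin 2 (-0.55), WT skin 3 (-0.60), WT fat 3 (-0.60) or WT fat 4 (-0.57). The mitosis median was -0.016, the S phase median -0.081 and that of all genes -0.16. The 3 tissue comparisons share their WT arrays and are not independent of each other.

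**Figure D1:**
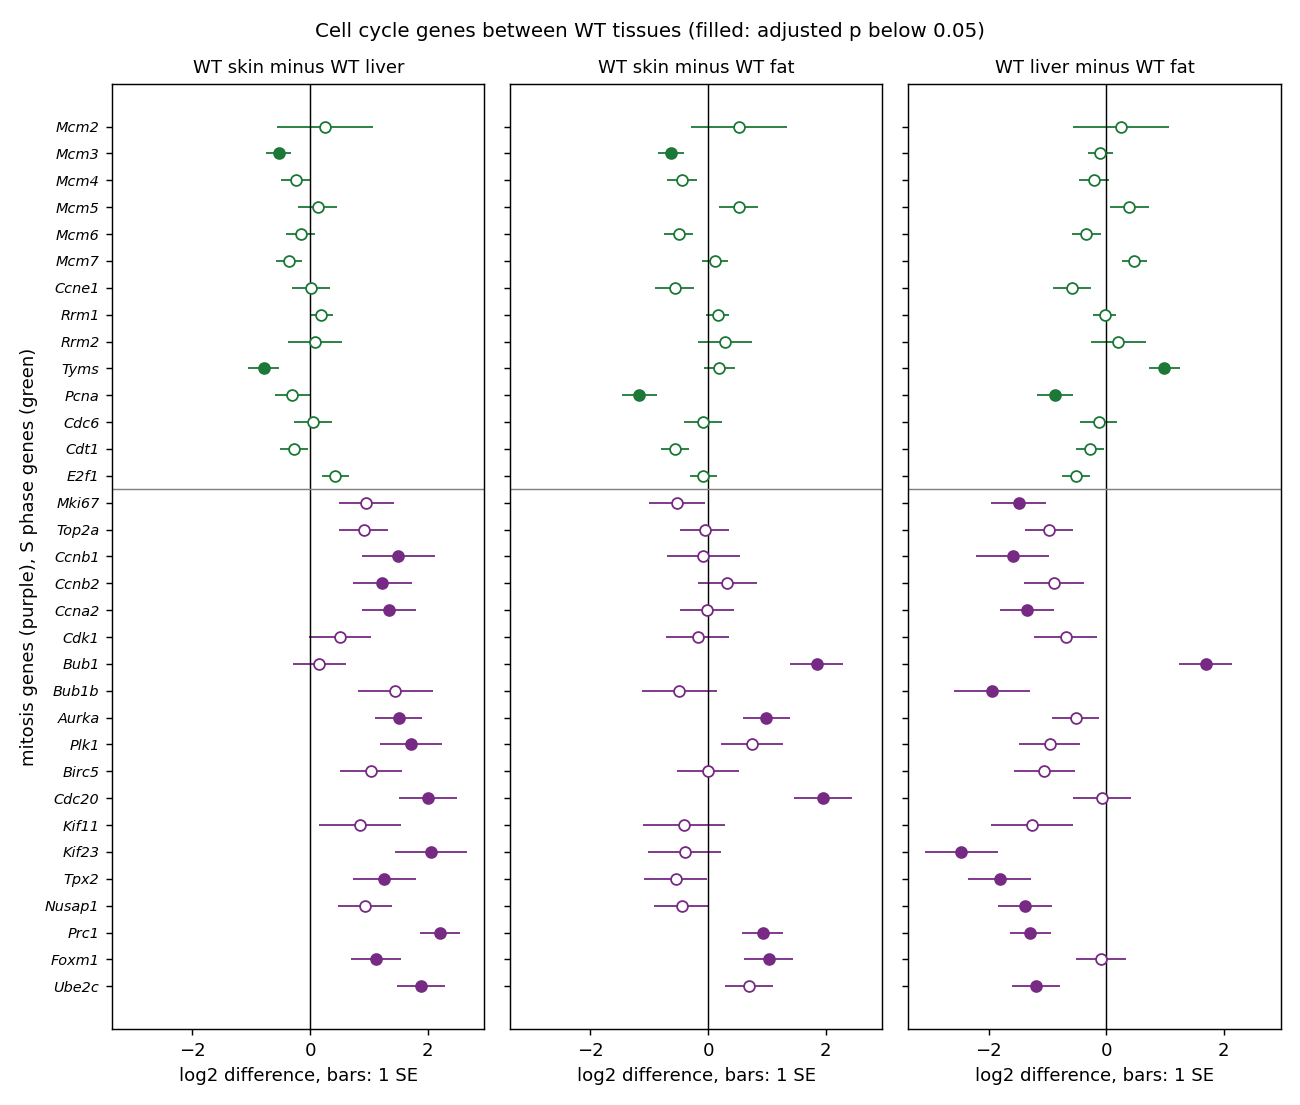
Log2 difference (x axis, bars 1 SE) of each tested member between WT tissues, with S phase genes in green above mitosis genes in purple and filled points for an adjusted p below 0.05. The mitosis genes lie to the right of 0 in WT skin minus WT liver (19 of 19) and mostly to the left in WT liver minus WT fat, while S phase genes lie on both sides of 0 in each panel. *Top2a*, *Ccnb1*, *Bub1b*, *Kif11* and *Kif23* are included, though they were too dim in liver to be tested there.

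The 4 members of each group with the brightest probes over all 20 arrays (brightness of a probe ranks no gene against another) were *Pcna*, *Mcm6*, *Mcm7* and *Mcm4* among S phase genes and *Birc5*, *Cdc20*, *Mki67* and *Ccnb2* among mitosis genes. *Mcm6* was at 3.20 ± 0.06 in WT skin, 3.36 ± 0.24 in WT liver and 3.71 ± 0.14 in WT fat (SD, n = 3 each), and skin and liver did not differ beyond this spread. *Mcm7* averaged 2.18 ± 0.37, 2.53 ± 0.04 and 2.05 ± 0.12 in WT skin, liver and fat, and *Mcm4* averaged 1.85 ± 0.04, 2.08 ± 0.19 and 2.29 ± 0.16 (SD, n = 3 each). No pair of tissues passed for *Mcm4*, *Mcm6* or *Mcm7*. *Mki67* was at 1.12 ± 0.70 in WT skin, 0.16 ± 0.05 in WT liver and 1.65 ± 0.15 in WT fat (SD, n = 3 each), and only liver against fat passed (-1.49, adjusted p = 0.0114). *Birc5*, which encodes survivin, was at 2.22 ± 0.58, 1.18 ± 0.52 and 2.22 ± 0.34 in WT skin, liver and fat (SD, n = 3 each). *Ccnb2*, cyclin B2, was at 1.44 ± 0.72, 0.21 ± 0.39 and 1.11 ± 0.33 in the same order. For *Ccnb2* skin against liver passed (1.23, adjusted p = 0.0423), and for *Birc5* no pair did. Liver had the lowest mean of the 3 WT tissues for *Birc5*, *Ccnb2*, *Mki67* and *Cdc20*, where it did not differ from fat beyond the spread, while WT skin had the lowest for *Pcna*, *Mcm6* and *Mcm4*.

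Knock-out against wild-type skin asks whether the cycle genes differ with JNK1. The KO and WT skin arrays lay on different slides, so within skin genotype cannot be told apart from slide. In KO skin 30 of 33 members had a positive difference and 3 a negative one, with a median of 0.40, but 0 passed the adjusted p of 0.05 (limma, smallest adjusted p = 0.555). Over all genes, 39.4% had a positive difference, their median was -0.10, and 0.0148% passed the adjusted p. The unadjusted p was below 0.05 for 2 members, both higher, which is set beside 2.85% of all genes. The median was 0.35 for S phase genes (13 of 14 positive) and 0.43 for mitosis genes (17 of 19 positive).

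The S phase member of smallest p was *Mcm6*, at 4.23, 3.47, 3.65 and 3.60 in KO skin and at 3.26, 3.20 and 3.15 in WT skin. Every KO array lay above every WT array, a difference of 0.53 (SE 0.227, limma adjusted p = 0.555). It was the only member whose skin groups did not overlap, where 3.35% of all genes had KO above WT without overlap. *Mcm3* was at 1.21, 0.39, 0.59 and 0.62 in KO skin and at 0.44, 0.05 and 0.14 in WT skin, a difference of 0.49 (SE 0.242). *Rrm2*, the regulated subunit of ribonucleotide reductase, was at -0.04, -1.66, -0.96 and -1.13 in KO skin and at -1.21, -1.87 and -1.69 in WT skin (difference 0.64, SE 0.371). *Rrm1*, its large subunit, was at 1.90, 1.22, 1.36 and 0.99 in KO skin and at 0.71, 0.99 and 1.14 in WT skin (difference 0.42, SE 0.255). For the last 3 genes the groups overlapped, and KO 1 was the highest array.

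Among mitosis genes, *Mki67* was at 3.59, 2.39, 2.41 and 1.22 in KO skin and at 0.31, 1.43 and 1.62 in WT skin, a difference of 1.28 (SE 0.538, limma adjusted p = 0.555). A second probe of *Mki67* gave 1.13. KO 1 to KO 3 stood above all WT arrays, and KO 4 lay among them. *Top2a* was at -0.27, -1.74, -1.41 and -2.70 in KO skin and at -2.99, -2.41 and -2.53 in WT skin (difference 1.12, SE 0.499). *Nusap1*, a spindle microtubule protein, was at 0.99, -0.57, -0.02 and -0.98 in KO skin and at -2.22, -1.01 and -0.65 in WT skin (difference 1.15, SE 0.523). *Ccnb1*, cyclin B1, was at 0.40, -1.02, -0.94 and -2.34 in KO skin and at -1.84, -2.30 and -1.97 in WT skin (difference 1.06, SE 0.544). Its other probes, each above background on 6 skin arrays, gave 0.90 and 0.28, so the size depended on the probe. In all 4 genes KO 4 lay within or below the WT range, while KO 1 was far above it.

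One array carried much of the skin difference. KO 1 was the highest of the 7 skin arrays for 28 of 33 members (12 of 14 S phase and 16 of 19 mitosis genes), and KO 4 was the lowest for 14, of which 12 were mitosis genes. Measured from the WT mean, the median mitosis gene stood at 1.70, 0.24, 0.54 and -0.47 on KO 1 to KO 4 and at 0.20, -0.22 and -0.013 on WT 1 to WT 3. The median S phase gene stood at 1.01, 0.12, 0.35 and 0.083 on the KO arrays and at 0.14, -0.036 and -0.045 on the WT arrays. Without KO 1 the member median was 0.072 (25 of 33 positive), with 0.14 for S phase and 0.031 for mitosis genes, and without KO 4 it was 0.61. With 1 array left out, the differences of *Top2a* (0.70) and *Ccnb1* (0.60) were smallest without KO 1. Those of *Mki67* (0.88) and *Nusap1* (0.69) were smallest without WT 1, although the member median without WT 1 was 0.48. KO 1 was also the array with the smallest share of probes above background (38.9%). With the dim arrays KO 1 and WT 1 both left out the median was 0.25.

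**Figure D2:**
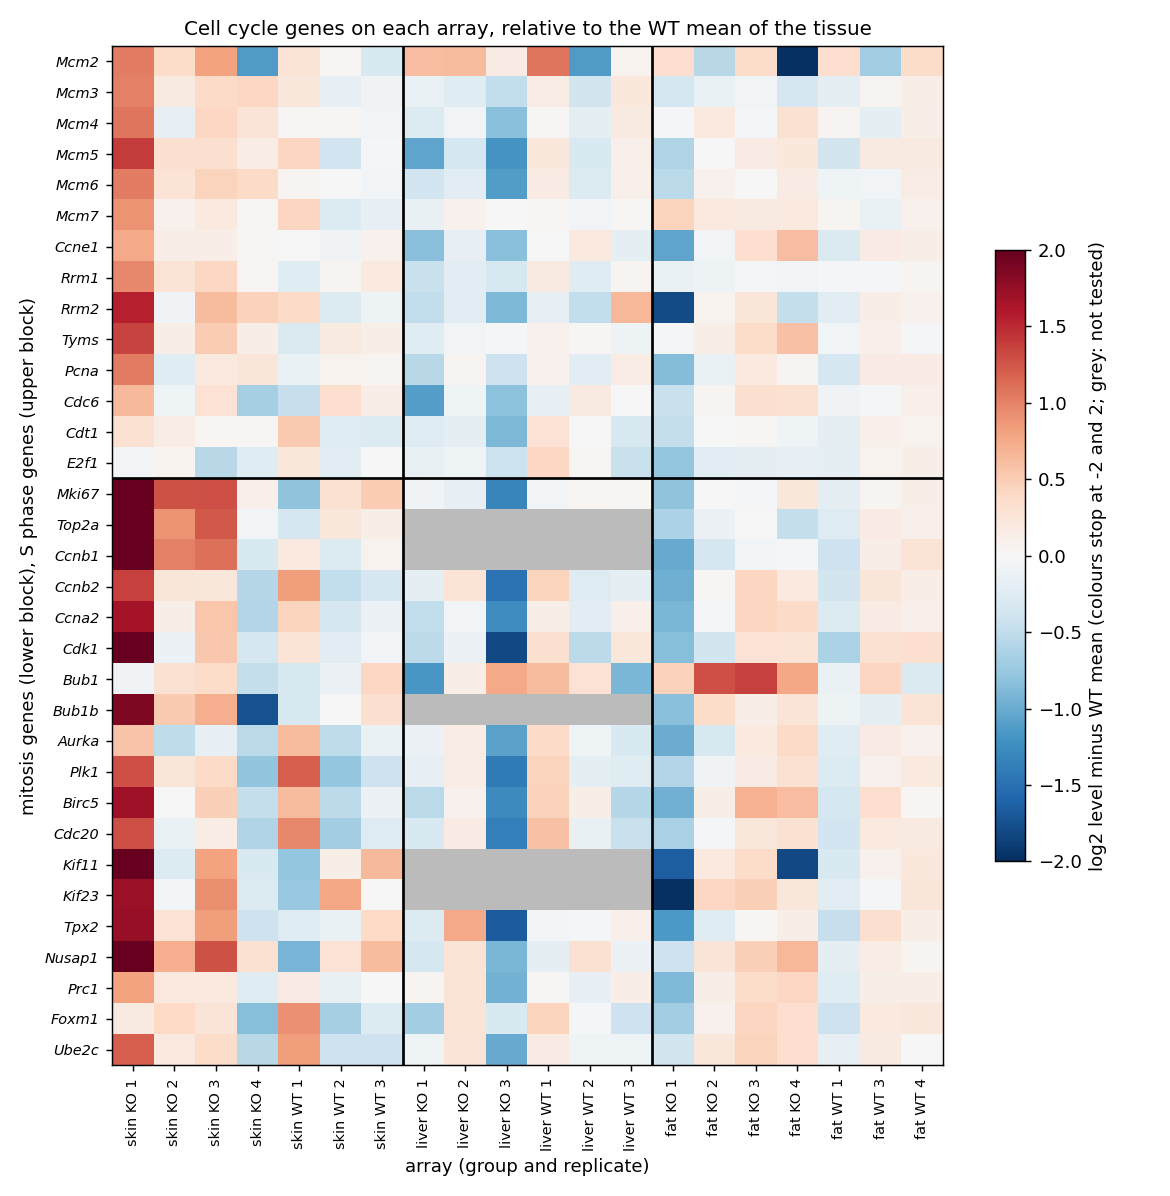
Each row is a tested member and each column an array, coloured by its log2 level minus the WT mean of that tissue, with S phase genes above and mitosis genes below the horizontal line and grey for members not tested in liver. The column of skin KO 1 is the darkest red, and the columns of liver KO 3 and fat KO 1 are the darkest blue of their tissues.

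Hair follicle markers separated the same skin samples by genotype, though none passed the adjusted p. Of 9 tested hair follicle markers, 9 were higher on every KO array than on every WT array (beside 3.35% of all genes), with a median difference of 3.96, and their adjusted p lay between 0.144 and 0.322. The log2 of the summed level of the 10 markers was 10.82, 9.68, 10.54 and 8.82 on KO 1 to KO 4 and 5.28, 7.50 and 5.58 on WT 1 to WT 3. KO 4, which had the lowest mitosis median of the KO arrays, also had their lowest hair follicle sum, and its part in the result was not tested. Keratinocyte markers showed 4 of 8 positive differences, endothelial markers 1 of 7 and adipocyte markers 1 of 8. Their summed log2 levels spanned 10.86 to 11.55 in KO skin and 11.16 to 11.70 in WT skin for keratinocyte genes.

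The mitosis genes did not move as a block on skin WT 1. That array was the lowest of the 7 for *Mki67*, *Top2a*, *Nusap1*, *Kif11* and *Kif23*, yet it was the highest WT array for *Cdc20* (3.55, against 1.90 and 2.33 on the other WT arrays), *Ccnb2* (2.27, against 0.94 and 1.11) and the Polo kinase gene *Plk1* (1.88, against -0.10 and 0.27). These genes were chosen after their values were seen. On WT 1 the lowest signal well above background was -2.53. *Top2a* (-2.99), *Kif11* (-4.31) and *Kif23* (-3.57) lay below it there, so their rank on that dim array is uncertain, unlike that of *Mki67* (0.31) and *Nusap1* (-2.22). For *Cdc20*, *Ccnb2* and *Plk1*, WT 1 stood above KO 2 to KO 4. The differences between KO and WT skin were accordingly small for these genes, such as 0.18 for *Cdc20*.

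**Figure D3:**
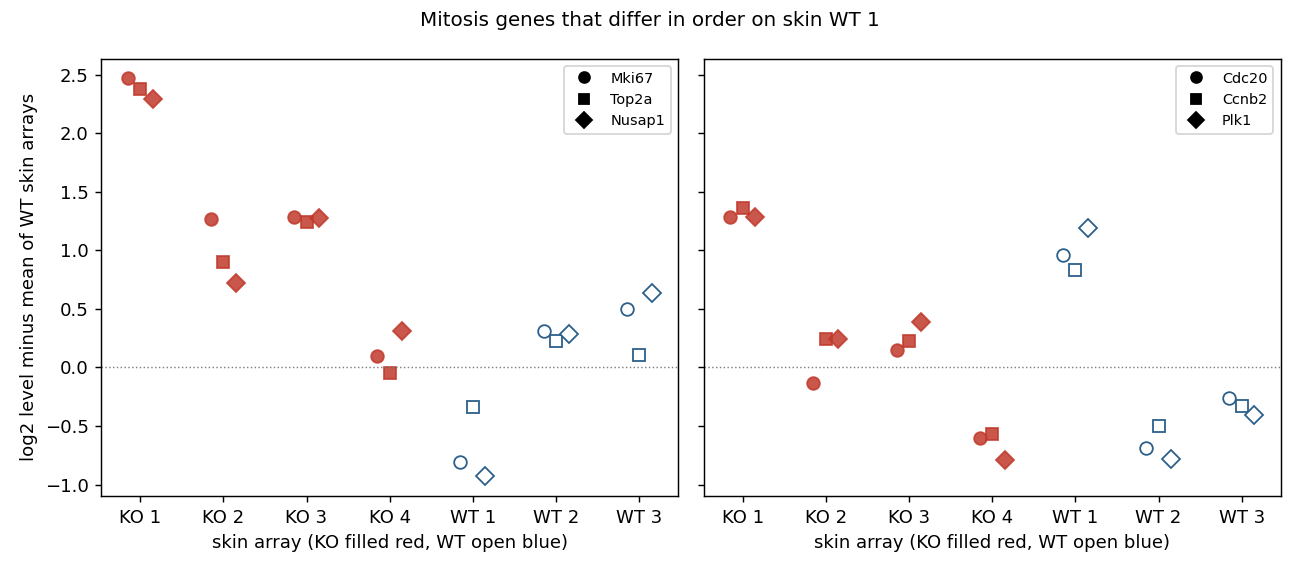
Log2 level of 6 mitosis genes minus their WT mean (y axis) on the 4 KO (filled) and 3 WT (open) skin arrays. *Mki67*, *Top2a* and *Nusap1* (left) lie below 0 on WT 1, where *Cdc20*, *Ccnb2* and *Plk1* (right) lie above 0, and all 6 are highest on KO 1. *Top2a* was not well above background on WT 1.

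Genes of the same pathways outside the 36 also lay mostly above 0 in KO skin where they belong to replication or mitosis. Other replication genes were positive in 25 of 26 cases with a median of 0.32. *Mcm10*, which activates the helicase, was at 0.78, 0.30, 0.40 and 0.41 in KO skin and at 0.13, -0.43 and -0.36 in WT skin (difference 0.69, limma adjusted p = 0.555), without overlap. *Brca1*, of DNA repair at replication forks, differed by 1.10. Other mitosis genes were positive in 22 of 26 cases with a median of 0.64, among them *Fbxo5*, an inhibitor of the anaphase-promoting complex (1.02), and the kinetochore gene *Cenpf* (1.10), whereas the securin gene *Pttg1* was lower on every KO array (-0.54). G1 cyclins and kinases were positive in 2 of 7 cases, the 3 of smallest p being *Ccnd3* (-0.46), *Myc* (-0.38) and *Cdk6* (-0.18). Cell cycle inhibitors were positive in 3 of 9 cases, with *Cdkn2d* at -0.66, *Cdkn2c* at -0.44 and the pocket protein gene *Rbl1* at 0.50. Among other E2F, DREAM and MYB factors 6 of 9 were positive, with *Mybl2* at 1.44, *Lin9* at 0.86 and *E2f6* at -0.45. None of these genes passed the adjusted p in skin.

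In KO liver, where KO and WT arrays again lay on different slides, the members lay the other way. There 27 of 28 tested members had a negative difference and 1, *Mcm2* (0.47), a positive one, with a median of -0.39, and 0 passed the adjusted p (limma, smallest adjusted p = 0.623), where 0.0226% of all genes passed. A positive difference was found in 49.0% of all genes, whose median was -0.0048. The unadjusted p was below 0.05 for 3 members, all lower and all of S phase, set beside 3.65% of all genes. The median was -0.36 for S phase genes and -0.43 for mitosis genes, of which 14 of 14 were negative.

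*Mcm5* was at 0.02, 0.74 and -0.09 in KO liver and at 1.29, 0.77 and 1.18 in WT liver, a difference of -0.86 (SE 0.264, limma adjusted p = 0.623). Every KO array lay below every WT array and KO 2 lay close to WT 2. Such non-overlap held for 2 of 28 members (*Mcm5* and *Mki67*) and for 6.22% of all genes. *Ccne1*, cyclin E1, was at -0.83, -0.15 and -0.82 in KO liver and at 0.01, 0.21 and -0.17 in WT liver (difference -0.62, SE 0.228). The loading factor gene *Cdc6* was at -4.11, -3.09 and -3.83 in KO liver, where 1 array was above background, and at -3.18, -2.83 and -3.01 in WT liver (difference -0.67, SE 0.274). *Mcm6*, whose promoter holds 3 E2F matches, was at 2.98, 3.16 and 2.25 in KO liver and at 3.54, 3.09 and 3.47 in WT liver (difference -0.57, SE 0.268). KO 2 overlapped the WT arrays in the last 3 genes.

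The mitosis genes of smallest p in liver did not reach an unadjusted p of 0.05. *Ccna2*, cyclin A2, was at -2.06, -1.62 and -2.81 in KO liver and at -1.45, -1.77 and -1.46 in WT liver (difference -0.60, SE 0.303). *Cdk1* was at -1.75, -1.33 and -3.03 in KO liver and at -0.90, -1.76 and -1.01 in WT liver (difference -0.81, SE 0.458). KO 3 was the lowest array in both. *Mki67* was at 0.09, -0.01 and -1.16 in KO liver and at 0.10, 0.20 and 0.18 in WT liver (difference -0.52, SE 0.330), and KO 1 lay just below the WT range. *Birc5* was at 0.64, 1.26 and -0.11 in KO liver and at 1.63, 1.29 and 0.61 in WT liver (difference -0.58, SE 0.398).

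KO 3 was the lowest of the 6 liver arrays for 18 of 28 members and for 12 of 14 mitosis genes, and WT 1 was the highest for 15 of 28. The median mitosis gene stood at -0.29, 0.16 and -1.27 on KO 1 to KO 3 and at 0.35, -0.08 and -0.15 on WT 1 to WT 3. The median S phase gene stood at -0.33, -0.13 and -0.66 on the KO arrays and at 0.12, -0.22 and 0.062 on the WT arrays. Without KO 3 the member median was -0.17, the S phase median -0.24 and the mitosis median -0.05. Without KO 2 the member median was -0.62.

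Keratinocyte transcripts were present on some liver arrays. The log2 of the summed keratinocyte marker level was 4.21, 5.70 and 3.11 on KO 1 to KO 3 and 3.49, 3.40 and 5.29 on WT 1 to WT 3, against 10.86 to 11.70 in skin. KO 2, the KO liver array with the highest keratinocyte sum, was also the one whose mitosis median stood above the WT mean. Among WT arrays, WT 3 had the highest keratinocyte sum but the lowest mitosis median (-0.15). KO 2 also had the highest macrophage (8.2) and lymphocyte (2.54) sums of the liver arrays. The part of KO 2 and of these cells in the result was not tested. With KO 1, KO 2 and WT 3 left out, the member median was -0.95, from KO 3 alone against WT 1 and WT 2. Hepatocyte markers were positive in 4 of 8 cases and macrophage markers in 4 of 6, and no hair follicle marker was tested in liver.

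**Figure D4:**
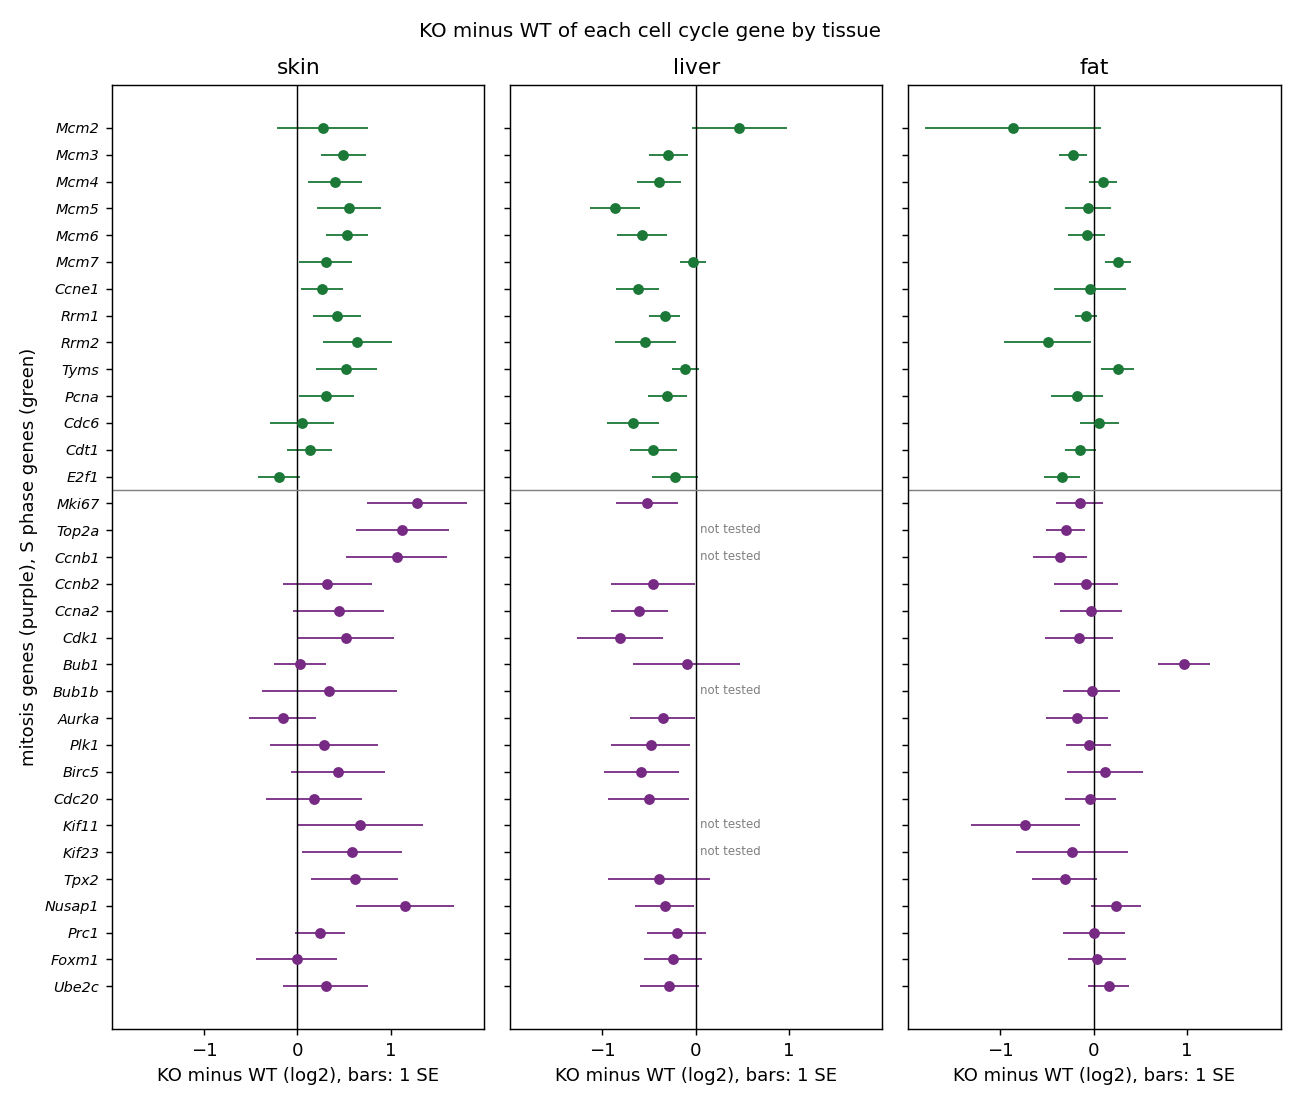
KO minus WT log2 difference (x axis, bars 1 SE) of each member in skin, liver and fat, with S phase genes in green above mitosis genes in purple. In skin 30 of 33 points lie right of 0, in liver 27 of 28 lie left of 0 and in fat 10 of 33 lie right of 0, and none passed an adjusted p of 0.05.

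In KO liver other replication genes were negative in 24 of 26 cases with a median of -0.25, and for 10 of 26 every KO array lay below every WT array, beside 6.22% of all genes. *Brca1* was at -2.28, -2.11 and -2.55 in KO liver and at -1.18, -1.58 and -0.87 in WT liver (difference -1.10, SE 0.222, limma adjusted p = 0.359). The groups did not overlap, and KO 3 did not stand apart from the other KO arrays. *Gmnn*, geminin, which blocks CDT1, was at 2.67, 2.97 and 2.64 in KO liver and at 3.27, 3.45 and 3.38 in WT liver (difference -0.61, SE 0.156). *Lig1*, the ligase of replication, was at 0.55, 0.79 and 0.28 in KO liver and at 1.67, 1.09 and 1.33 in WT liver (difference -0.82, SE 0.213). These 3 had the smallest p of their list, 7 of 26 had an unadjusted p below 0.05, all lower, beside 3.65% of all genes, and none passed the adjusted p. The list was drawn up with results of these data known.

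Other mitosis genes were negative in 15 of 20 cases in KO liver, with *Ect2*, a guanine exchange factor of cytokinesis, at -0.98, the condensin gene *Smc2* at -0.47 and the centrosome kinase gene *Nek2* at -0.47. G1 cyclins and kinases were negative in 5 of 7 cases, with *Ccnd1* at -0.46, *Myc* at -0.25 and *Cdk6* at -0.18. Cell cycle inhibitors were negative in 6 of 9 cases, with *Cdkn2c* at -0.63, *Rbl1* at -0.66 and *Cdkn1a*, encoding p21, at 0.51. *E2f2* went against this direction at 1.01, 1.27 and 0.93 in KO liver and 0.37, 0.53 and -0.16 in WT liver, a difference of 0.82 (SE 0.219, limma adjusted p = 0.557). *E2f6* differed by 0.25 and *Lin54*, a DREAM subunit, by -0.28.

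In KO fat the members showed little common direction. Differences were positive for 10 and negative for 23 of 33 members, with a median of -0.073 (S phase -0.077, mitosis -0.053), while 62.3% of all genes were positive and their median was 0.076. By limma 0 passed the adjusted p, where 0.0131% of all genes passed, and 1 (*Bub1*) had an unadjusted p below 0.05 and was higher, set beside 4.81% of all genes. *Bub1* and *Mcm7* were the 2 members with every KO array above every WT array, as were 6.64% of all genes.

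The S phase differences in fat were small. *Mcm7* was at 2.51, 2.26, 2.24 and 2.25 in KO fat and at 2.11, 1.92 and 2.14 in WT fat (difference 0.26, SE 0.138, limma adjusted p = 0.700). *E2f1* was at -0.95, -0.39, -0.36 and -0.34 in KO fat and at -0.35, -0.10 and -0.05 in WT fat (difference -0.34, SE 0.193). KO 1 was far below the other KO arrays for *E2f1*, and the rest lay close to WT 1. *Tyms* was at 0.94, 1.09, 1.34 and 1.56 in KO fat and at 0.91, 1.07 and 0.93 in WT fat (difference 0.26, SE 0.176). *Mcm3* was at 0.49, 0.70, 0.79 and 0.50 in KO fat and at 0.64, 0.91 and 0.97 in WT fat (difference -0.22, SE 0.151). The groups overlapped for *E2f1*, *Tyms* and *Mcm3*.

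*Bub1*, the checkpoint kinase gene, was at -2.30, -1.47, -1.38 and -1.97 in KO fat and at -2.89, -2.32 and -3.04 in WT fat, a difference of 0.97 (SE 0.280, limma adjusted p = 0.537). The other mitosis genes of smallest p lay the other way. *Top2a* was at -3.23, -2.69, -2.59 and -3.05 in KO fat and at -2.84, -2.42 and -2.49 in WT fat (difference -0.30, SE 0.204). *Ccnb1* was at -2.96, -2.29, -2.02 and -1.98 in KO fat and at -2.37, -1.81 and -1.68 in WT fat (difference -0.36, SE 0.287). *Kif11*, the spindle kinesin gene, was at -4.77, -2.94, -2.76 and -4.93 in KO fat, where 2 arrays were above background, and at -3.43, -3.04 and -2.91 in WT fat (difference -0.73, SE 0.583). *Kif11* was low on KO 1 and KO 4 alone.

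The 2 *Bub1* probes disagreed. The probe used, the brighter one, lies at chr2:127626326-127626385 and the other at chr2:127626988-127627047 in the array's mm9 annotation. In KO fat minus WT fat they gave 0.97 and -0.57, in WT liver minus WT fat 1.69 and -2.33, and in WT skin minus WT fat 1.85 and -0.80. The second probe was at -4.37, -1.90, -2.52 and -3.96 in KO fat and at -2.90, -2.49 and -2.48 in WT fat, and was above background on 5 of 7 fat, 3 of 7 skin and 0 of 6 liver arrays, while the used probe was above background on all 20. As the mean of all probes, *Bub1* was at -0.32 in WT liver minus WT fat and at 0.52, no longer passing, in WT skin minus WT fat. On the second probe *Bub1* had the sign of most mitosis genes in WT liver against WT fat. Among members with several probes above background, signs agreed in 6 of 6 in skin, 3 of 3 in liver and 7 of 9 in fat, where *Bub1* and *Ccnb1* had probes of opposite sign.

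As in skin and liver, 1 KO array of fat stood apart. KO 1 was the lowest of the 7 fat arrays for 27 of 33 members, among them 17 of 19 mitosis genes. The median mitosis gene stood at -0.85, 0.027, 0.36 and 0.30 on KO 1 to KO 4 and at -0.27, 0.17 and 0.14 on WT 1, WT 3 and WT 4. The median S phase gene stood at -0.46, -0.0053, 0.17 and 0.11 on the KO arrays and at -0.14, 0.065 and 0.12 on the WT arrays. Without KO 1 the member median was 0.13, with 23 of 33 positive, so the direction of the median turned with this array. Without WT 1 it was -0.22, without WT 3 it was -0.01, and without WT 4 it was 0.0045.

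The deposited value table allows 4 KO and 4 WT columns in fat, since it holds WT 2. There the difference was above 0 for 6 members and below 0 for 27, its median was -0.21, and 0 passed the adjusted p (limma, smallest adjusted p = 0.313). *E2f1*, less each column's 75th percentile, was at -0.64, -0.11, -0.08 and -0.16 in KO fat and at 0.04, 0.59, 0.21 and 0.29 in WT fat, a difference of -0.55 (SE 0.173, adjusted p = 0.313). The 4 KO columns lay below the 4 WT columns, and WT 2 was the highest. The share of all genes separated in this way was not counted for the value table. *Mcm3* differed by -0.39 (SE 0.157) in this table.

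**Figure D5:**
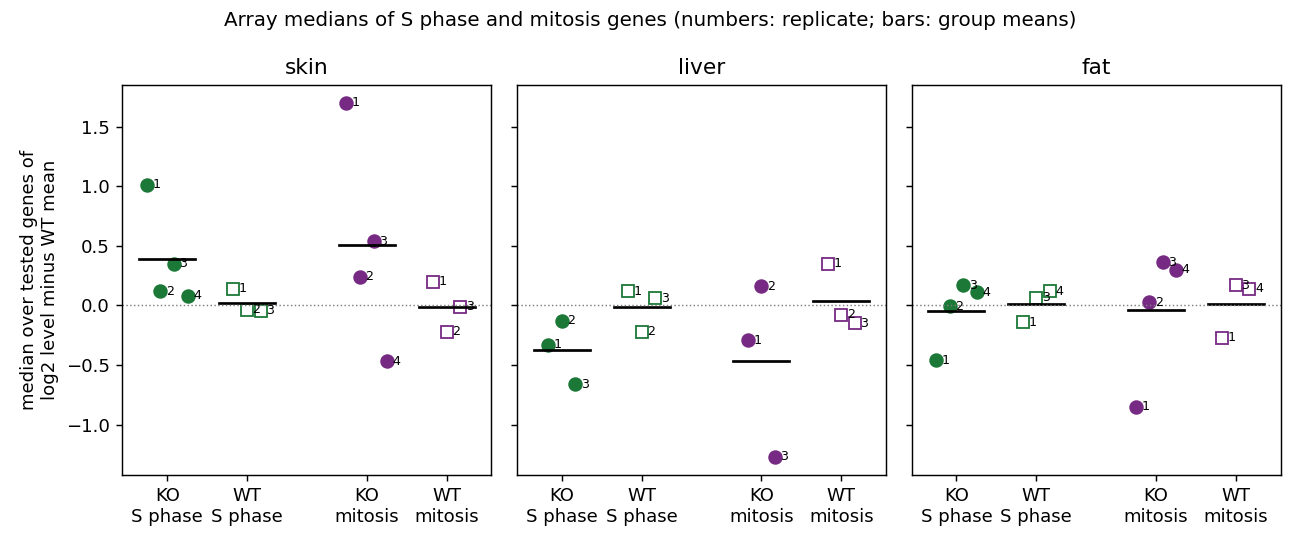
Median over tested S phase (green) and mitosis (purple) genes of the log2 level minus the WT mean (y axis) on each KO (filled) and WT (open) array, numbered by replicate, with bars for group means. The mitosis medians reach further from 0 than the S phase medians on skin KO 1 (1.70 and 1.01), liver KO 3 (-1.27 and -0.66) and fat KO 1 (-0.85 and -0.46), the extreme arrays of their tissues. On some other arrays the S phase median reaches further, such as liver KO 1 (-0.29 and -0.33) and liver WT 2 (-0.08 and -0.22). The spread of the 2 groups was not compared by a test.

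Markers of other cell types also lay apart between the fat groups. Macrophage markers were negative in 7 of 7 cases, with a median of -0.39 and *Itgam* at -1.33, and erythroid markers were positive in 4 of 4 without overlap (beside 6.64% of all genes), with a median of 1.12. The log2 of the summed macrophage level was 8.61, 7.90, 8.15 and 5.82 in KO fat and between 8.35 and 8.57 in WT fat. The epididymis sum was -3.01, 1.84, -0.55 and -2.71 in KO fat and 5.50, 5.06 and -1.38 in WT fat. KO 1, the array with the lowest cell cycle levels, was the highest in the macrophage sum among KO arrays, and the part of these cells in the result was not tested. Other replication genes were positive in 18 of 29 cases (*Pold1* 0.47, *Pola2* 0.28, *Orc6* 0.33) and other mitosis genes in 8 of 31 (*Cdc25b* 0.26, *Pbk* 0.88, *Cdca3* -0.36). G1 genes were positive in 4 of 7 cases, inhibitors in 6 of 9 and other E2F, DREAM and MYB factors in 8 of 11, and *Ccnd2* (0.62), *Cdkn2c* (0.48) and *E2f2* (0.41) were higher on every KO array than on every WT array. *Ccnd3* (0.39), *Ccnd1* (-0.37), *Cdkn2b* (0.49), *Rb1* (0.37), *Tfdp2* (0.25) and *E2f7* (0.42) overlapped, and none of these genes passed the adjusted p.

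Whether the effect of JNK1 loss differed between tissues was tested as a difference of differences. Skin against liver had a median of 0.78 with 32 of 33 members positive, but 0 passed the adjusted p (limma, smallest adjusted p = 0.326), where 0.202% of all genes passed. The unadjusted p was below 0.05 for 8 of 33 members, beside 8.06% of all genes. The 5 of smallest p were *Mcm6* (1.10), *Mcm5* (1.41), *Top2a* (1.65), *Rrm1* (0.75, but -0.018 as the mean of its probes) and *Mki67* (1.81). The other *Rrm1* probe was above background on 0 skin and 0 liver arrays, so that mean draws on signal not well above background. For *Mcm5* the difference was 0.55 in skin and -0.86 in liver, and for *Mcm6* it was 0.53 and -0.57. *Top2a* was above background on 1 of 6 liver arrays, and *Top2a*, *Ccnb1*, *Bub1b*, *Kif11* and *Kif23* had too few such liver arrays for a test within liver, so for these 5 the liver side is mostly signal not well above background.

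Skin against fat had a median of 0.39 with 30 of 33 members positive and 0 passing (smallest adjusted p = 0.359), where 0.423% of all genes passed, and 3 members had an unadjusted p below 0.05, beside 11.9% of all genes. Its 5 members of smallest p were *Top2a* (1.42), *Mcm3* (0.71), *Mki67* (1.43), *Rrm1* and *Rrm2*. Without skin KO 1, 22 of 33 were positive and the mitosis median, 0.39 with all arrays, was 0.047, while with slide as a fixed block it was 1.25. Liver against fat had a median of -0.37 with 4 of 33 positive and 0 passing (smallest adjusted p = 0.999), where 0.0564% of all genes passed, and 0 members had an unadjusted p below 0.05, beside 4.71% of all genes. The members of smallest p there were *Mcm5* (-0.80), *Bub1* (-1.07), *Cdc6*, *Mcm6* and *Mcm4*. Without liver KO 3, 13 of 33 were positive and the mitosis median, -0.38 with all arrays, was -0.031. These 3 contrasts share arrays, and the KO and WT arrays of skin lay on different slides, as did those of liver, so no value within a slide could be had there.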

How the data were processed

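RNA of skin, liver and epididymal fat was hybridised to 21 single-colour Agilent arrays. The deposited intensity values are processed signals from Agilent Feature Extraction 10.7.3.1, background-corrected per the file headers. The deposited value table holds log2 values, judged from its slope of 0.878 to 0.959 on the scanner signals' log2 (fat WT 2 aside), with column medians of 5.76 to 6 and its making unstated; limma is named in the submitters' processing notes with no role. Levels were log2 intensity minus the array's 75th percentile. Outlier spots were left out, and each gene took its probe of highest mean over 20 arrays. Genes above background on at least 3 arrays of a tissue were tested with limma 3.58.1 (R 4.3.3), p-values adjusted over all genes tested, and called below 0.05. The text names, for KO against WT in each tissue, called members and the 4 S phase and 4 mitosis members of smallest p, at least 5 of smallest p for differences between tissues, and 3 for each other list, except 1 named by this rule that is not reported here. The members and lists were chosen with earlier results of these data known. The test was tried on simulated data. Alternatives covered normalization, background, filters, probes, slides, replicates and single arrays left out. The number of arrays limits precision.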

Additional observations from a re-analysis of the deposited data

Results flagged for a closer look

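In groups of 4 arrays, 72 values (member levels and medians over members) were screened for 1 array far from the other 3. Of these 72, 5 were flagged, a share near the 5% that chance gives. All 5 were on KO 1 of their tissue. *Mcm5* on skin KO 1 was at 2.61 (nearest other KO array 1.53), *Ccne1* on skin KO 1 at 0.78 (nearest 0.17) and *Mcm7* on fat KO 1 at 2.51 (nearest 2.26), each the highest of its group. *E2f1* on fat KO 1 was at -0.95 (nearest -0.39) and *Kif23* on fat KO 1 at -4.42 (nearest -2.18), each the lowest of its group.

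The scanner file labelled fat WT 2 entered only an alternative with the file as deposited (fat member median -0.20). It gave higher levels than the other WT fat arrays for the genes below. The log2 of its summed hair follicle marker level was 11.4, against a highest value of -0.89 on the other WT fat arrays. *Mki67* was at 2.51 there (highest other WT fat array 1.77), *Top2a* at -1.81 (-2.42) and *Nusap1* at 0.07 (-0.70). *Top2a* was not well above background in that file, though it was on the 3 WT fat arrays fitted, so its higher level is uncertain.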

How the results depend on the processing

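No member passed between KO and WT in any tissue under any alternative run (19 in skin, 18 in liver and 20 in fat). Leaving out 1 array at a time, the member median lay between 0.072 and 0.61 in skin, -0.62 and -0.17 in liver, and -0.22 and 0.13 in fat. In liver it was -0.95 without KO 1, KO 2 and WT 3. The cause was not tested. With slide as a fixed block, in 1 fit of all 20 arrays, the medians of skin, liver and fat were 0.80, -0.38 and -0.21. For skin and liver no slide held both genotypes, so the slide terms there rest on arrays of other tissues. Within the slide that holds fat KO 2 and fat WT 4, an alternative added after seeing the data, the fat median was -0.11. Single values that reversed were *Kif11* in fat (0.19 with slide as a fixed block), *Bub1* in WT liver against WT fat (-0.32 as the mean of all probes) and *Rrm1* in the skin minus liver effect (-0.018 as the mean of all probes). The second *Rrm1* probe was above background on 0 skin and 0 liver arrays.

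The 13 members called between WT skin and WT liver became 8 with no filter on dim probes and 7 with slide as a fixed block, and 8 to 12 with 1 array left out. The 7 called between WT skin and WT fat became 4 under scaling by the array median, 13 with normexp background correction, and 3 to 6 with 1 array left out. There *Mcm3* lost its call under scaling by the array median (-0.65, adjusted p = 0.0655) and in the deposited value table (-0.42, adjusted p = 0.101), where the S phase median was 0.16, and *Prc1* lost its call with slide as a fixed block (0.79, adjusted p = 0.0606). The 12 called between WT liver and WT fat stayed between 8 and 16. Same-numbered KO and WT arrays had correlated deviations of -0.11 to -0.04 in skin, -0.23 to -0.06 in liver and -0.02 to 0.19 in fat. For differently numbered arrays they were -0.09 to 0.19, -0.22 to 0.24 and -0.26 to 0.22. These few pairs cannot settle whether replicate numbers pair the samples. With the replicate block the member medians of skin, liver and fat were 0.61, -0.39 and -0.092, and no call changed. Dim signal limits *Ccne2*, *Aurkb* and *Cenpa* in all tissues.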
